A study of Homo sapiens with 6 samples.

Results

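The collagen genes of MDA-MB-231 cells, a human cell line of the triple-negative breast cancer (TNBC) subtype, are described before and after silencing of SAM68, an RNA-binding protein and splicing factor encoded by KHDRBS1. Members were all loci of the deposited table with a gene symbol made of COL, a number, A and a single digit, and 44 of the 74852 loci fulfilled this rule. By their known structure they were divided into 11 fibrillar, 6 basement membrane, 5 beaded filament, 10 FACIT (fibril-associated collagens with interrupted triple helices), 3 short-chain network, 4 transmembrane, 2 multiplexin and 1 anchoring fibril collagens, and 2 others. Cells were transfected with a pool of non-targeting siRNAs (si-CTRL, 3 libraries) or with 4 pooled siRNAs that target SAM68 (si-SAM68, 3 libraries). Both groups received Lipofectamine RNAiMAX, were transfected on 2 occasions and, per the labels, were collected 24 h after the last one, whereas the methods of the study give another time. The model is 1 established cell line grown without stromal cells, no source states that replicates came from separate cultures, and p-values therefore measure the spread between these libraries, which may be technical. Values are normalized read counts, which are reads per locus divided by the size factor of the library.

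Collagens are secreted or membrane proteins in which chains wind into a triple helix, and each type has its own chains, encoded by separate genes. Fibrillar collagens build the fibrils of connective tissue, type IV forms the sheet of basement membranes, and type VI forms microfibrils close to cells. Their chains are hydroxylated on proline and lysine, folded and exported through enlarged vesicles, trimmed of their propeptides, crosslinked and bound by integrins and discoidin receptors. In breast tumors most collagen is made by fibroblasts, but mesenchymal-like carcinoma cells also transcribe collagen genes.

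The 4 siRNAs of the si-SAM68 pool are shown because they define the treated group and because an siRNA can also lower transcripts that match its seed. Each is written 5′ to 3′ as the strand that matches the target, and capitals mark the stretch complementary to guide bases 2 to 8, at positions 12 to 18.
siSAM68_1: gcacccauaugGACGUUAu
siSAM68_2: gaaagagcgagUGCUGAUa
siSAM68_3: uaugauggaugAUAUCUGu
siSAM68_4: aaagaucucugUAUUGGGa
All 4 matched the coding sequence of KHDRBS1 in GENCODE. A match to any of the 4 capital stretches was found in the 3′UTR of 2 of the 30 collagens tested (6.67%), COL4A2 and COL7A1, against 3845 of the 13259 tested genes with a 3′UTR. None of the other collagens tested had a match in its longest annotated 3′UTR. Coding sequences of collagens, other 3′UTRs and matches to the other siRNA strand were not searched. Whether an siRNA acted on any collagen was not tested.

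Sequences of 3 regions upstream of collagen genes are shown. These belong to COL13A1 and COL27A1, which were lower in si-SAM68 cells, and to COL4A1 with COL4A2, which share 1 promoter region. The promoter set used had no entry for COL8A1, the collagen with the largest change. The sequences come from RefSeq (GRCh38.p14, plus strand), with motifs found on either strand in capitals. The motif with TATAAA is called the TATA box here, and the motif with GGGCGG is called the GC box. A CCAAT box is named by its letters, and none of these motifs contains another.
COL13A1, chr10:69801656-69801905: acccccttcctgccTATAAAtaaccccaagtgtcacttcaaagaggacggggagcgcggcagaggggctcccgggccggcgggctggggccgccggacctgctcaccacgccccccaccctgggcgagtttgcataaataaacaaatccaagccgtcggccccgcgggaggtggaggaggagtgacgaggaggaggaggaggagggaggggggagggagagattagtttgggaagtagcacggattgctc
COL27A1, chr9:114155287-114155536: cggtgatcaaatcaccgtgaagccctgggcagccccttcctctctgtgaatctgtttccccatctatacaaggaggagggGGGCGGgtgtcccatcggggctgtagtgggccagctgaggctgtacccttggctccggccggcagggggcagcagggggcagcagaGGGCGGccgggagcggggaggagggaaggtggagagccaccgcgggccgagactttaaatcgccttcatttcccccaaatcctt
COL4A1/COL4A2, chr13:110307158-110307283: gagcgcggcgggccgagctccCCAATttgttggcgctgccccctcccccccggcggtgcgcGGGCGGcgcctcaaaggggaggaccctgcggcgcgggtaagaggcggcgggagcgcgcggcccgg
The printed window of COL13A1 held 1 TATA box and no GC box, that of COL27A1 held 2 GC boxes and no TATA box, and the 126 bases between COL4A1 and COL4A2 held 1 CCAAT box and 1 GC box at a GC content of 80.2%. RefSeq windows from 250 bases before the start were matched by symbol for 22 of the 30 collagens tested. In windows of 300 bases, the GC box was present in 15 of these 22 and in 44.59% of all 27305 promoters, the CCAAT box in 7 and in 35.7%, the TATA box in 4 and in 11.95%, and the AP-1 motif TGANTCA in 0 and in 7.76%. The 4 with a TATAAA match were COL13A1, COL17A1, COL6A2 and COL7A1. Matches were counted at any position, and that of COL13A1 lies at the far end of its printed window from the start. Whether any match works as a promoter element was not tested.

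Depth was between 52625492 and 82568487 reads per library, and 1 rRNA locus took 15.12% of the reads of si-SAM68 replicate 2 and between 1.835% and 3.171% of those of the other libraries. KHDRBS1 fell in all si-SAM68 libraries, to 4.13% of the si-CTRL mean (log2 fold change -4.60, adjusted p = 2.13e-09). Of 5 genes listed as markers of MDA-MB-231 cells, only CAV1, a gene of mesenchymal-like breast cancer cells, passed a threshold. CAV1 was higher in si-SAM68 cells (60584 vs. 93098 on average, log2 fold change 0.62, adjusted p = 0.00101). The log2 fold change was -0.14 for VIM, 0.17 for CD44, 0.27 for AXL (adjusted p = 0.0969) and 0.11 for EGFR, so that the list showed no common change. VIM, another gene of such cells, was between 138300 and 173162. By contrast, CDH1 and EPCAM, defining epithelial genes, were at most 4.60 and 9.20 in any library, and ESR1 at most 15.2. ERBB2, whose locus is joined with MIR4728, was between 2413 and 3447. Of 7 fibroblast markers, DCN, LUM and POSTN were at or under 4.47 in every library, and the PDGFRA locus is joined with FIP1L1. The summed level of the 7 was between 9458 and 11619 in si-CTRL vs. between 7855 and 8228 in si-SAM68 cells. Of the 4 tested, only THY1 passed a threshold and was lower, at 4544 vs. 2793 on average (log2 fold change -0.70, adjusted p = 0.00288). The log2 fold changes were -0.13 for the joined PDGFRA locus, -0.07 for PDGFRB and 0.28 for FAP, so that the sum does not stand for a common change. In bulk RNA, fewer cells that express a gene and less RNA per cell cannot be told apart. The part of these markers in the results on collagens was not tested.

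MDA-MB-231 cells transcribed many collagen genes, but the reads were concentrated on few of them. Of the 44 collagens, 30 reached a mean count of 10 and were tested. Another 7 had between 0 and 10 reads in each library (COL2A1, COL24A1, COL4A3, COL14A1, COL25A1, COL26A1 and COL28A1), and 7 had no read in any library, which allows up to 3 reads in each (COL6A5, COL6A6, COL9A1, COL19A1, COL22A1, COL10A1 and COL23A1), so that a change in these 14 was not detectable at this depth. All collagens together took 0.610% ± 0.0368 (SD, n = 3) of the reads in si-CTRL libraries and 0.585% ± 0.0613 (SD, n = 3) in si-SAM68 libraries, a difference smaller than the spread between libraries (two-sided exact permutation test, p = 0.7, where 3 against 3 libraries allow no p under 0.1). The total includes the reads of the rRNA locus, and the share of si-SAM68 replicate 2 was 0.540%. In normalized read counts the collagen sum was 400060 ± 22750 (SD, n = 3) in si-CTRL and 404790 ± 30480 (SD, n = 3) in si-SAM68 libraries (two-sided exact permutation test, p = 0.8). The 5 collagens with the most reads held 86.7% ± 0.981 (SD, n = 3) of collagen counts in si-CTRL libraries and 88.8% ± 0.477 in si-SAM68 libraries.

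COL1A1, which encodes the main chain of type I collagen, had the highest level of the collagens. Its normalized read counts were 153458, 181387 and 145926 in replicates 1, 2 and 3 of si-CTRL, and 175815, 155873 and 138281 in the si-SAM68 replicates. The groups overlapped, and the log2 fold change of -0.03 had a 95% interval from -0.29 to 0.22. COL1A2, the gene of the second chain of type I, was at 32.5, 50.4 and 34.2 in si-CTRL and at 54.4, 47.8 and 40.2 in si-SAM68 libraries. Per kb of transcript, the si-CTRL level was 23823 for COL1A1 and 7.21 for COL1A2, so that RNA of the partners of 1 triple helix was present at very unequal levels. COL3A1, the gene of type III collagen that forms fibrils with type I in skin and vessels, was at 6.27 per kb.

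Next in level per kb of si-CTRL cells were COL5A2 at 11113, COL6A1 at 11079, COL5A1 at 4435, COL4A1 at 3522, COL6A2 at 2698 and COL13A1 at 2065. COL5A2 and COL6A1 differed by less than their spread between libraries. COL5A1 and COL5A2 encode chains of type V collagen, which sits inside type I fibrils and limits their width, and COL6A1 and COL6A2 encode chains of type VI.

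**Figure D1:**
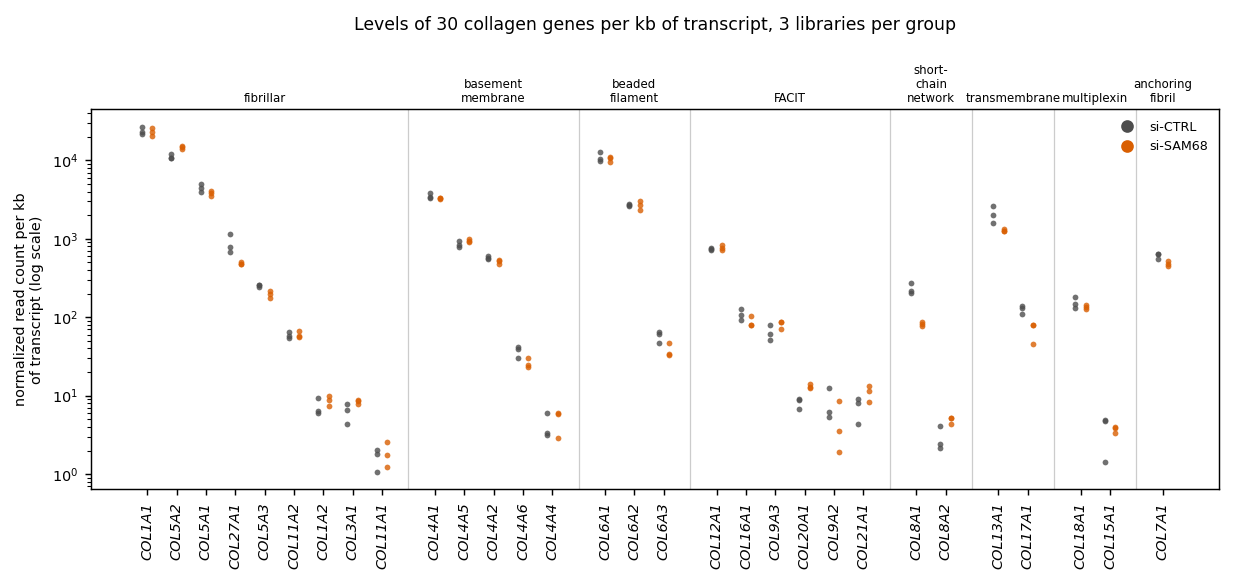
Normalized read count per kb of transcript (log axis) of the 30 collagens tested, grouped by structural class, with 1 point for each library, gray for si-CTRL and orange for si-SAM68. COL1A1 is at 23823 per kb and COL1A2 at 7.21 per kb in si-CTRL cells, and the orange points of COL8A1, COL13A1, COL17A1 and COL27A1, among others, lie below all of their gray points.

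In si-SAM68 cells a few collagens of different classes were lower, while the median of the family stayed close to that of all loci. By the thresholds of unadjusted p-value of at most 0.05 and fold change of at least 1.5, 5 of 30 collagens were lower in si-SAM68 cells (COL8A1, COL17A1, COL27A1, COL13A1 and COL6A3), while 4.83% of all 18849 loci tested were, and 1 was higher (COL20A1), while 2.83% of all loci were. With an adjusted p-value under 0.05, 6 were lower (COL8A1, COL17A1, COL27A1, COL13A1, COL5A3 and COL7A1), against 6.23% of all loci, and 2 were higher (COL5A2 and COL20A1), against 4.47%. With the replicate number as a block, 5 were lower (with COL6A3, and without COL5A3 and COL7A1) and 1 was higher (COL5A2). That fit gave 1697 of all loci in either direction. Groups did not overlap in 8 collagens with lower and 3 with higher si-SAM68 libraries, against 17.3% and 16.6% of all loci. The median log2 fold change of the 30 was -0.05, with 17 below 0 and 13 above 0, and that of all loci tested was 0.01, with 9258 below 0. Without si-CTRL replicate 1 the number of lower collagens by fold change fell to 3, as COL27A1 and COL13A1 came under the fold change threshold. The number of lower collagens with an adjusted p-value under 0.05 was 3, 2 and 1 without si-CTRL replicate 3, si-SAM68 replicate 1 and si-SAM68 replicate 3, and the same fits gave 1108, 921 and 627 loci of either direction against 2017 with all libraries. For higher collagens this number was 0 without si-CTRL replicate 3, si-SAM68 replicate 1 or si-SAM68 replicate 2, and 1 without si-CTRL replicate 2 or si-SAM68 replicate 3. By the fold change rule 2 collagens were higher without si-CTRL replicate 2 (with COL8A2) or si-SAM68 replicate 3 (with COL21A1). The median of the collagens was -0.14 when si-CTRL replicate 2 was left out and -0.024 when si-CTRL replicate 1 was, the extremes of these fits.

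COL8A1, which encodes a short-chain collagen of vessel walls and of the basement membrane of the corneal endothelium, had the largest change of the family in absolute value. Its counts were 1554, 1152 and 1247 in replicates 1, 2 and 3 of si-CTRL, and 469, 445 and 502 in the si-SAM68 replicates. All si-SAM68 libraries were below all si-CTRL libraries, and 35.8% of the si-CTRL mean was left. The log2 fold change was -1.47 (SE 0.122, adjusted p = 0.000248). The gene lies on chromosome 3 of hg19 from 99357440 to 99515577, with no other locus with reads over it. COL8A2, the gene of the partner chain, was at 10.0, 19.4 and 11.4 in si-CTRL and at 20.1, 23.9 and 24.6 in si-SAM68 libraries. Its groups did not overlap either, in the opposite direction. The log2 fold change of 0.76 (SE 0.349) did not pass the limma test before or after adjustment (unadjusted p = 0.0548, adjusted p = 0.195). The ratio of COL8A1 to COL8A2 counts thus went from 93.0 to 19.9.

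Both transmembrane collagens tested were lower. COL17A1, which encodes a collagen of hemidesmosomes that anchors epithelial cells to the basement membrane, was at 781, 624 and 755 in si-CTRL and at 259, 455 and 449 in si-SAM68 libraries. Its si-SAM68 replicate 1 was well below the other si-SAM68 libraries, and the groups did not overlap. This was a log2 fold change of -0.93 (SE 0.204, adjusted p = 0.0200), and leaving out si-CTRL replicate 3 gave an adjusted p of 0.0549 and leaving out si-SAM68 replicate 3 one of 0.0518. Its locus on chromosome 10 (105791046 to 105845638) also holds MIR936, whose reads cannot be told apart from those of COL17A1.

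COL13A1, which encodes a transmembrane collagen found at cell adhesion sites and neuromuscular junctions, was the most abundant of its class. Its counts were 8270, 5126 and 6350 in si-CTRL and 4009, 4198 and 4002 in si-SAM68 libraries. Control libraries were widely spread, si-SAM68 libraries lay close together, and all of the latter were below the former. It changed by -0.67 on the log2 scale (SE 0.144, adjusted p = 0.0190) and lies on chromosome 10 of hg19 from 71561644 to 71718904. Without si-CTRL replicate 1, the highest library, it was -0.49, under the 1.5-fold threshold, and leaving out si-SAM68 replicate 1, 2 or 3 gave an adjusted p of 0.0762, 0.0529 or 0.0938.

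Among fibrillar collagens, COL27A1 was lower and COL5A2 was higher. COL27A1 encodes a fibrillar collagen of cartilage matrix. It was at 8985, 5271 and 6128 in si-CTRL and at 3687, 3926 and 3770 in si-SAM68 libraries. As for COL13A1, si-CTRL replicate 1 was the highest and the groups did not overlap. Its log2 fold change was -0.80 (SE 0.161, adjusted p = 0.0142), and the gene lies on chromosome 9 of hg19 from 116917825 to 117074795. It was -0.58, just under the 1.5-fold threshold, without si-CTRL replicate 1, and leaving out si-SAM68 replicate 1 or 3 gave an adjusted p of 0.0645 or 0.0767. An unnamed locus with a mean of 41.5 counts in si-CTRL cells and MIR455 overlap the gene.

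COL5A2 was the most abundant collagen that passed the adjusted threshold. Counts were 85687, 74960 and 75430 in si-CTRL and 105922, 108191 and 98771 in si-SAM68 libraries. The groups did not overlap, and the si-SAM68 mean was 132.5% of the si-CTRL mean, short of the 1.5-fold threshold. The log2 fold change was 0.41 (SE 0.084, adjusted p = 0.0156), and the adjusted p rose to 0.0567 without si-CTRL replicate 3, and to 0.0619 and 0.0743 when si-SAM68 replicate 1 or 2 was left out. COL5A2 held 19.7% ± 1.13 (SD, n = 3) of collagen counts in si-CTRL libraries and 25.8% ± 1.12 (SD, n = 3) in si-SAM68 libraries, with no overlap (p = 0.1 in the two-sided exact permutation test, its lower limit for 3 against 3 libraries).

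The other genes of type V collagen had fold changes below 0. COL5A1 was at 41866, 37555 and 33290 in si-CTRL and at 34782, 32535 and 29873 in si-SAM68 libraries, with overlap and a log2 fold change of -0.21 (adjusted p = 0.203). COL5A3, the gene of another chain, of restricted expression, was at 1574, 1588 and 1521 and at 1339, 1240 and 1096, without overlap. Its log2 fold change was -0.35 (SE 0.095, adjusted p = 0.0419, or 0.0508 with the replicate number as a block). In 5 of the 6 fits that left out 1 library, all but that without si-CTRL replicate 1, the adjusted p of COL5A3 was over 0.05, between 0.0515 and 0.156. Besides, 2 unnamed loci inside COL5A1 had means of 13.5 and 390 counts in si-CTRL cells and did not pass the test.

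Of the remaining fibrillar genes, none passed either threshold. COL11A2 was the best expressed, at 380 ± 31.7 (SD, n = 3) and 385 ± 36.8, with a log2 fold change of 0.02. COL1A2 (0.29), COL3A1 (0.45) and COL11A1 (0.16) had means under 50 counts in both groups, and their 95% intervals all included 0. The 9 fibrillar collagens tested had a median log2 fold change of 0.02.

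**Figure D2:**
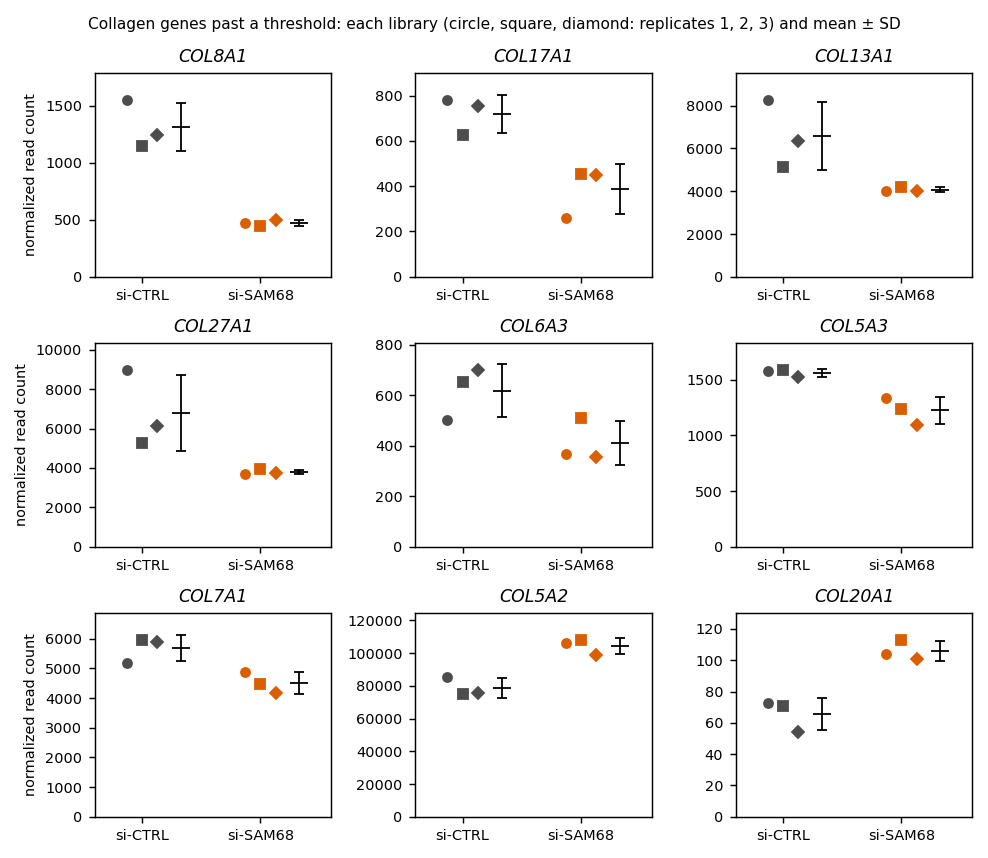
Normalized read count (linear axis from 0) in each library of the 9 collagens past a threshold, with si-CTRL in gray, si-SAM68 in orange, circles, squares and diamonds for replicates 1, 2 and 3, and mean ± SD in black. In COL8A1 the si-SAM68 libraries lie between 445 and 502 and the si-CTRL libraries at 1152 and above, whereas COL6A3 groups overlap.

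In type VI collagen, COL6A3 passed the fold change rule and its partner chains did not. COL6A3, which encodes the longest chain of type VI, was at 501, 653 and 701 in si-CTRL and at 367, 511 and 354 in si-SAM68 libraries. The groups overlapped, as si-SAM68 replicate 2 was above si-CTRL replicate 1. Its log2 fold change was -0.59 (SE 0.170), with an adjusted p of 0.0529 over all loci, and of 0.0454 with the replicate number as a block. Leaving out si-CTRL replicate 2 or 3 or si-SAM68 replicate 1 or 3 took it under the 1.5-fold threshold (-0.55, -0.50, -0.52 and -0.50), while leaving out si-CTRL replicate 1 or si-SAM68 replicate 2 gave an adjusted p of 0.00849 or 0.0308. COL6A1 was at 54903, 41278 and 44681 in si-CTRL and at 47453, 44969 and 40863 in si-SAM68 libraries (log2 fold change -0.07, 95% interval -0.32 to 0.17). COL6A2 was at 9392, 9104 and 9521 and at 10436, 9329 and 8076 (log2 fold change -0.02, 95% interval -0.23 to 0.20). The ratio of COL6A1 to COL6A3 was 76.0 in si-CTRL vs. 109 in si-SAM68 cells, with overlapping libraries, but within each replicate number the ratio was higher in the si-SAM68 library, by 0.24, 0.47 and 0.85 on the log2 scale.

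No basement membrane collagen passed either threshold with limma and all libraries, and 1 of 5 tested, COL4A6, had an unadjusted p-value under 0.05. With the fold change rule, edgeR and DESeq2 called none of them either, and DESeq2 gave COL4A6 alone an adjusted p-value under 0.05. COL4A1, the gene of the main chain of type IV, was at 25350, 22517 and 22038 in si-CTRL and at 21946, 22249 and 21035 in si-SAM68 libraries, with a log2 fold change of -0.10 (95% interval -0.27 to 0.08). COL4A2 was at 3933, 3565 and 3652 and at 3529, 3406 and 3090, narrowly without overlap, with a log2 fold change of -0.15 (adjusted p = 0.261). COL4A5, a chain gene of kidney and smooth muscle basement membranes on chromosome X, was at 5128, 5477 and 6064 and at 5875, 6459 and 6130 (log2 fold change 0.15, adjusted p = 0.285).

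COL4A6, which lies head to head with COL4A5 at a distance of 346 bases, was at 284, 205 and 268 in si-CTRL and at 158, 205 and 166 in si-SAM68 libraries. The highest si-SAM68 library was just under the lowest si-CTRL library. Its log2 fold change was -0.51 (SE 0.165, adjusted p = 0.0788). By the fold change rule it was lower without si-CTRL replicate 2 (log2 fold change -0.65, adjusted p = 0.0394) or si-SAM68 replicate 2 (-0.62, adjusted p = 0.0892), the library that lies closest to the other group in each case. ATG4A overlaps its locus, with a log2 fold change of -0.27 (adjusted p = 0.109), and whether strand was used in counting is not given in the sources used here.

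COL20A1 was the only collagen higher in si-SAM68 cells by the fold change rule. It encodes a little studied FACIT, and its counts were 72.5, 70.7 and 54.2 in si-CTRL and 104, 113 and 101 in si-SAM68 libraries. The groups did not overlap, and the log2 fold change was 0.69 (SE 0.182, adjusted p = 0.0406, or 0.0552 with the replicate number as a block). Without si-CTRL replicate 3, the lowest library, it was 0.56, under the 1.5-fold threshold, with an adjusted p of 0.117. The adjusted p was over 0.05 in 5 of the 6 fits that left out 1 library, between 0.0566 and 0.143, all but that without si-CTRL replicate 1.

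With all libraries, the other FACIT collagens did not pass either threshold. COL12A1, which encodes a collagen of tendon and tumor stroma and was by far the best expressed of this class, was at 8671 ± 286 (SD, n = 3) in si-CTRL vs. 9081 ± 646 in si-SAM68 cells, with a 95% interval of the log2 fold change from -0.11 to 0.24. COL16A1 had a log2 fold change of -0.31 (adjusted p = 0.232) and COL9A3 of 0.36 (adjusted p = 0.236), and both loci overlap another expressed gene, TMEM234 and TCFL5. COL9A2 (-0.87) and COL21A1 (0.65) had means under 50 counts in both groups and overlapping libraries. By the fold change rule COL9A2 was lower without si-SAM68 replicate 1 (-1.39, adjusted p = 0.149), and COL21A1 was higher without replicate 3 of si-CTRL (0.84, adjusted p = 0.178) or of si-SAM68 (0.84, adjusted p = 0.247).

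COL7A1, the gene of the collagen of anchoring fibrils below the epidermis, was at 5173, 5968 and 5906 in si-CTRL and at 4892, 4467 and 4173 in si-SAM68 libraries. The groups did not overlap, although si-CTRL replicate 1 and si-SAM68 replicate 1 were close. The log2 fold change was -0.33 (SE 0.090, adjusted p = 0.0431, or 0.0751 with the replicate number as a block), and 5 of the 6 fits that left out 1 library, all but that without si-CTRL replicate 1, gave an adjusted p over 0.05, up to 0.173. Its locus also holds MIR711, and its 3′UTR holds the match to siSAM68_2 given above, whose effect was not tested. Of the multiplexins, which carry endostatin-like ends, COL18A1 was at 1012 ± 170 (SD, n = 3) and 891 ± 48.8 (log2 fold change -0.17, adjusted p = 0.399) and overlaps SLC19A1, and COL15A1 was at 20.2 ± 10.8 and 20.6 ± 1.96.

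**Figure D3:**
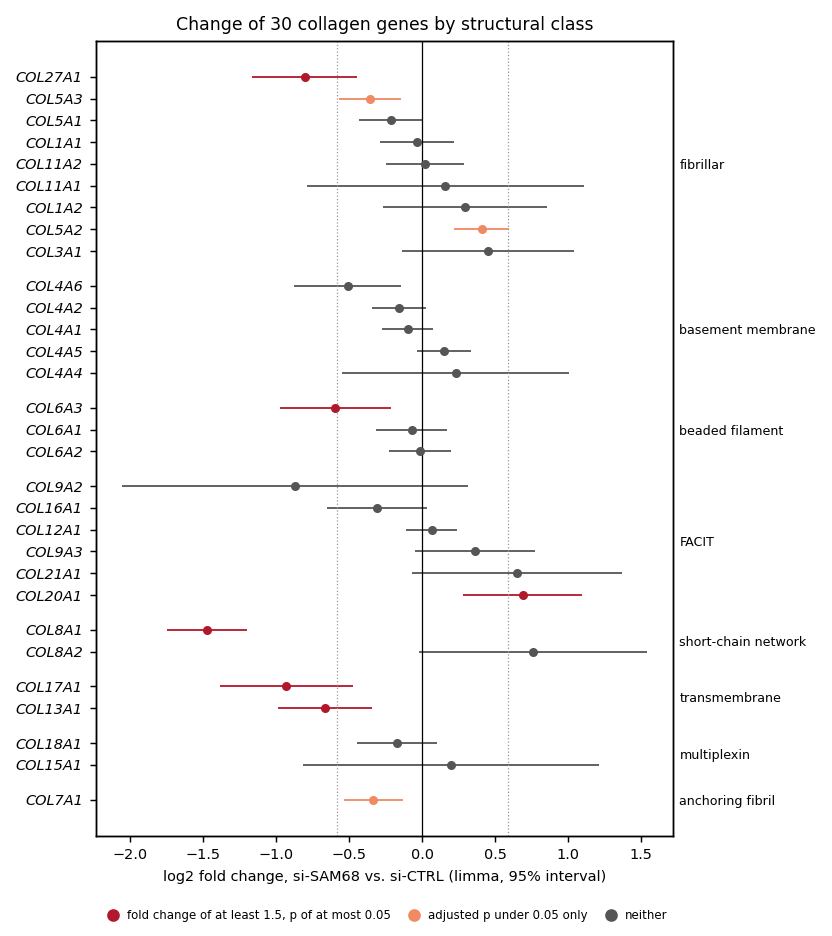
Log2 fold change of si-SAM68 vs. si-CTRL with its 95% interval for the 30 collagens tested, grouped by structural class, with dotted lines at a fold change of 1.5 in each direction. Red points pass the fold change rule (COL8A1, COL17A1, COL27A1, COL13A1 and COL6A3 lower, COL20A1 higher) and light orange points have an adjusted p under 0.05 alone (COL5A2, COL5A3 and COL7A1).

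Ratios between the counts of chains of 1 type were compared for the 20 pairs of tested chains of 7 types. Pairs were formed by type alone. Not every pair shares a triple helix, above all in type IV, so that a changed ratio need not concern chains assembled together. Libraries did not overlap in 6 pairs, 4 with a lower and 2 with a higher ratio in si-SAM68 cells, and each of the 6 had the smallest p that the design allows in a two-sided exact permutation test (p = 0.1, adjusted p = 0.308 over the 20 pairs). COL5A1 to COL5A2 went from a ratio of 0.476 to 0.310, a log2 difference of -0.62. COL5A2 to COL5A3 went from 50.3 to 85.3, a log2 difference of 0.76. COL8A1 to COL8A2 had a log2 difference of -2.23, the largest in absolute value of the 20. The others were COL1A1 to COL1A2 (-0.33), COL4A2 to COL4A5 (-0.30) and COL4A5 to COL4A6 (0.66). The replicate numbers were taken to pair the libraries, and an exact test of 3 paired differences cannot go below a p of 0.25. Within each number the ratio moved in the same direction in 11 of the 20 pairs, 7 lower and 4 higher in si-SAM68 libraries. These were the 6 pairs without overlap and 5 with overlap, namely COL4A1 to COL4A5, COL4A2 to COL4A4 and COL9A2 to COL9A3 with lower ratios, and COL6A1 to COL6A3 and COL6A2 to COL6A3 with higher ones. The count of non-overlapping pairs was 10 when replicate 2 of either group was left out. Many pairs share a chain and are not separate observations. The shares among other pairs of loci were not computed, so that these counts cannot be read as an excess.

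Neighboring collagen genes gave both outcomes. COL4A1 and COL4A2, which are 126 bases apart in hg19 and share the promoter region printed above, had a ratio of 6.26 in si-CTRL vs. 6.51 in si-SAM68 cells, a log2 difference of 0.06 with overlapping libraries (two-sided exact permutation test, p = 0.4). COL6A1 and COL6A2, at a distance of 93069 bases, had ratios of 4.99 and 4.80, also with overlap. COL4A5 and COL4A6, which are head to head, went from 22.1 to 34.9 without overlap. COL3A1 and COL5A2, at a distance of 19168 bases, were both higher on average, at 134% and 132.5% of si-CTRL, but for COL3A1 at 34.7 and 46.6 mean counts the groups overlapped.

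**Figure D4:**
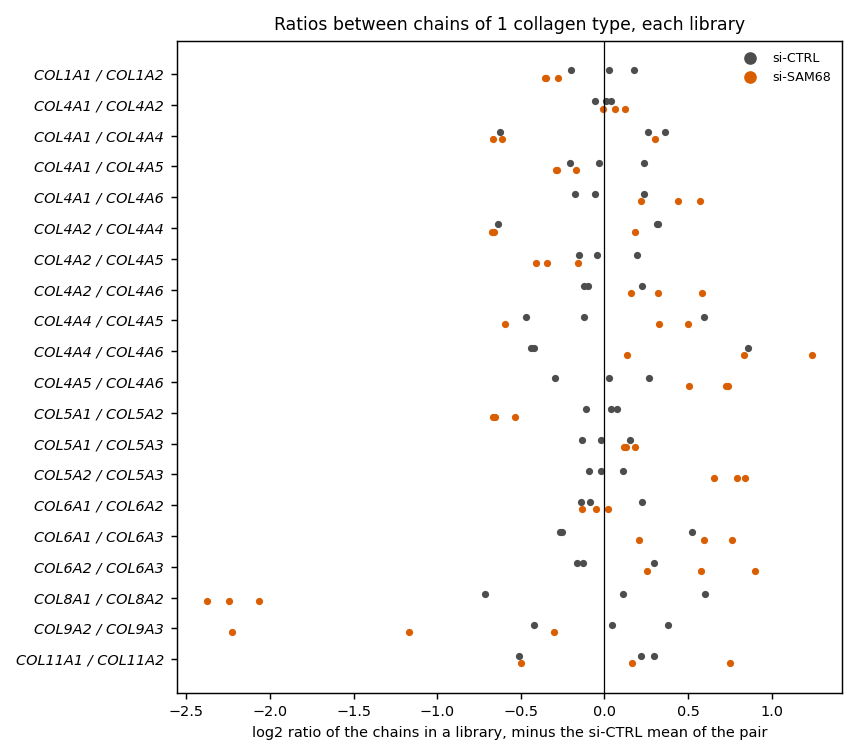
Log2 ratio of the counts of 2 chains of 1 collagen type in each library, minus the si-CTRL mean of that pair, with gray points for si-CTRL and orange points for si-SAM68 libraries. Orange points lie apart from gray points for 6 of the 20 pairs, with COL8A1 to COL8A2 displaced by -2.23 and COL5A2 to COL5A3 by 0.76.

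Genes that modify, export, trim, crosslink and bind collagens were compared in the same way. The list of 49 genes matched 50 loci, of which 46 were tested. By the fold change rule 1 was lower, MRC2, and 0 were higher with limma, edgeR or DESeq2. With limma, 4.83% of all loci were lower and 2.83% higher by this rule. At an unadjusted p-value under 0.05, 7 of the 46 were higher and 8 lower, against 12.8% and 14.1% of all loci. With an adjusted p-value under 0.05, 5 were higher and 3 lower, against 4.47% and 6.23% of all loci. The median log2 fold change of the list was 0.02, with 26 above and 20 below 0. Leaving out a library left 3 higher (without si-CTRL replicate 2 or 3 or si-SAM68 replicate 1) or 1 (without si-SAM68 replicate 2 or 3), and 1 lower without si-CTRL replicate 3, si-SAM68 replicate 1 or si-SAM68 replicate 3. By the fold change rule, 1 was higher without any 1 of the si-CTRL replicates or without si-SAM68 replicate 3, and 2 were lower without si-CTRL replicate 2, si-SAM68 replicate 1 or si-SAM68 replicate 3.

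Folding and export, with 11 loci tested, held 4 of the 5 genes higher by adjusted p, or 3 with the replicate block. Of all loci, 4.47% were higher by adjusted p in the fit without a block. FKBP7, a prolyl isomerase of the endoplasmic reticulum, was at 1036, 887 and 917 in si-CTRL and at 1423, 1416 and 1381 in si-SAM68 libraries, without overlap (log2 fold change 0.57, SE 0.091, adjusted p = 0.00502). CTAGE5, which helps load procollagen into transport vesicles, had a log2 fold change of 0.38 (adjusted p = 0.0157), and SEC23A, a coat protein of these vesicles, of 0.35 (adjusted p = 0.0128). SEC24D, another coat protein, was lower by 0.29 on the log2 scale (adjusted p = 0.0350, or 0.0615 with the replicate block). FKBP14, an isomerase related to FKBP7, had a log2 fold change of 0.28 (adjusted p = 0.0455, or 0.0557 with the replicate block). FKBP10 had the highest mean count of this role over the 6 libraries, but a lower one than SEC23A in si-SAM68 libraries, and was at 14716 ± 1780 (SD, n = 3) and 13959 ± 1012.

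Among prolyl hydroxylation genes, P4HA1, a catalytic subunit of prolyl 4-hydroxylase, was higher, with 6750, 6222 and 6428 in si-CTRL and 7828, 7952 and 8592 in si-SAM68 libraries (log2 fold change 0.33, adjusted p = 0.0226). P4HB, the shared subunit, had the highest mean count of this role, with PPIB within its spread, and a log2 fold change of -0.06. None of the 5 lysyl hydroxylation and glycosylation genes (PLOD1 with the highest mean count and PLOD3 within its spread, log2 fold change 0.03) and none of the 4 crosslinking genes tested (LOXL2 best expressed, 0.06) passed either threshold or had an unadjusted p-value under 0.05.

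Propeptide removal genes had a median log2 fold change of -0.27, with 6 of 7 below 0 and 4 with an unadjusted p-value under 0.05, all of them lower (14.1% of all loci were), but none passed a threshold in the fit without a block. PCOLCE, an enhancer of the C-proteinase, was at 822 ± 141 (SD, n = 3) and 594 ± 76.7, a log2 fold change of -0.46 (adjusted p = 0.0659, or 0.0286 with the replicate block). BMP1, the C-proteinase itself and the best expressed of this role, had a log2 fold change of -0.15.

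Of the receptors, MRC2 and ITGA11 were lower. MRC2, which encodes an endocytic receptor that takes up collagen for degradation, was at 4502, 3724 and 3923 in si-CTRL and at 2834, 2524 and 2127 in si-SAM68 libraries, without overlap (log2 fold change -0.70, SE 0.116, adjusted p = 0.00611). ITGA11, an integrin chain that binds fibrillar collagen, was at 1952, 1764 and 1884 and at 1337, 1533 and 1355 (log2 fold change -0.41, adjusted p = 0.0200). ITGB1, its partner chain and the best expressed gene of the list, had a log2 fold change of 0.03.

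**Figure D5:**
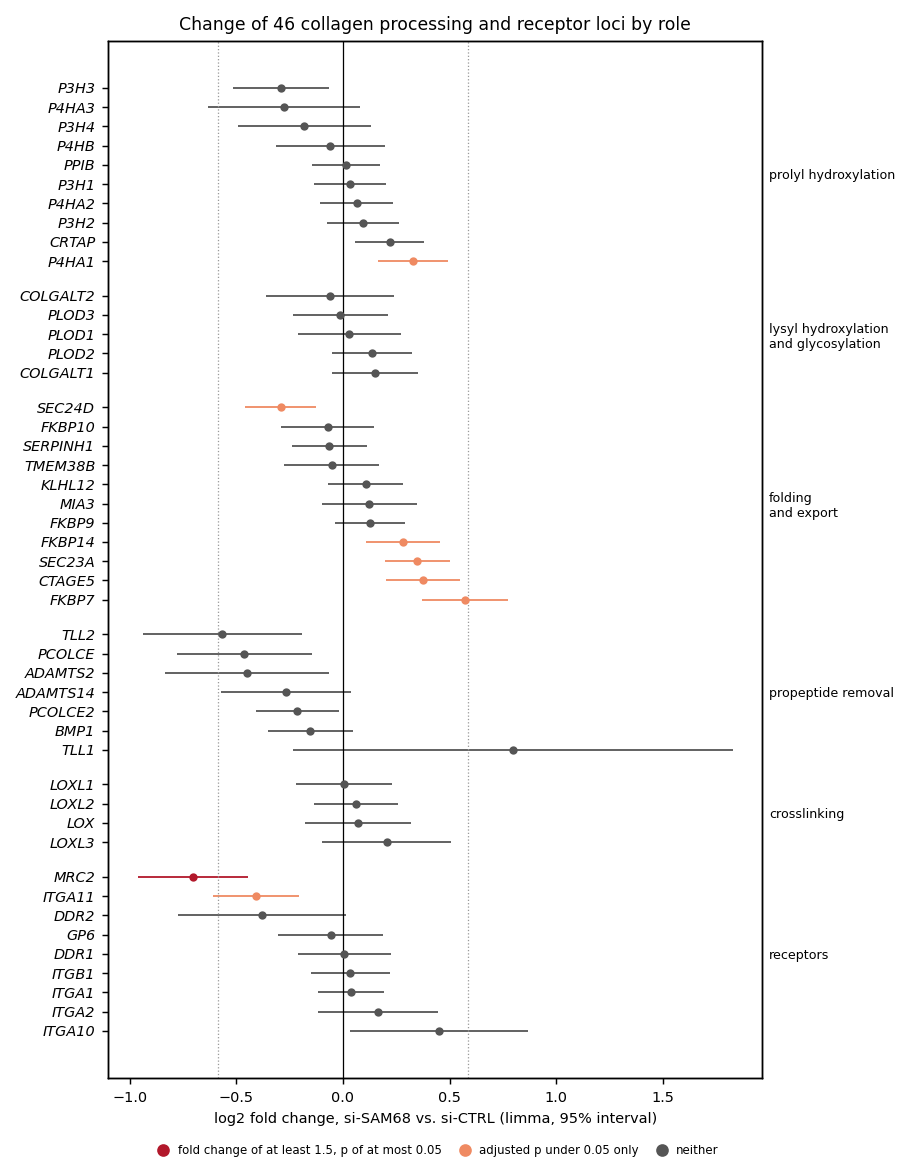
Log2 fold change of si-SAM68 vs. si-CTRL with its 95% interval for the 46 tested loci of collagen processing and receptor genes, grouped by role, with dotted lines at a fold change of 1.5. MRC2 is the single red point (-0.70), and light orange points have an adjusted p under 0.05, 5 above 0 and ITGA11 and SEC24D below it.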

How the data were processed

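Polyadenylated RNA of 6 libraries of MDA-MB-231 cells was sequenced. Each value deposited by the authors is a signal, namely the reads on each FAST DB locus (hg19) divided by the DESeq2 size factor of the library. The submitters' processing notes name STAR 2.4.0, SAMtools, Picard, FastQC and DESeq2. The counting program and the use of strand are not given in the sources used here, so that overlapping genes, joined loci and paralogs can share reads. Divided by its library's smallest step, 100% of values came out whole (tolerance 0.001) and were taken as reads.

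Loci with a mean of at least 10 (18849) were tested on log2(normalized read count + 1), which understates the change of low genes, with limma 3.58.1 (R 4.3.3; eBayes with trend), and p-values were adjusted over all loci tested by the Benjamini-Hochberg method. The p-value and fold change thresholds are those of the study's methods, which do not say whether p was adjusted. They were applied here to the unadjusted p-value of another fit, so that the calls are not those of the study and differ in number. The adjusted p-value under 0.05 was added here. All libraries were assigned by their labels. Chain ratios (log2 of counts + 1) were compared by two-sided exact permutation tests. Transcript lengths and 3′UTRs are the longest per gene in GENCODE v29 (GRCh38), used for sequence and not position. The members and lists were chosen with earlier results of these data known.

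Deviations of libraries with the same replicate number from their group means correlated at 0.105, 0.231 and 0.125, and those of libraries with different numbers at -0.125 to 0.00687, so the numbers were taken to pair the libraries, and a fit with them as a block was made. Libraries of a group differed by at least 12.61 times the sampling variance (chi-square per degree of freedom), so that none was counted as a duplicate. That value was for si-CTRL replicates 2 and 3, whereas si-CTRL replicate 1 differed from them by 75.26 and 79.09. In si-SAM68, replicate 2 differed from replicates 1 and 3 by 386.1 and 387.5, with 20.29 between replicates 1 and 3.

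Alternatives tried were pseudocounts of 0.1 and 5, omitting the filter, a minimum mean of 50, TMM and quantile scaling, eBayes without a trend or with a robust one, the block, edgeR 4.0.16 (quasi-likelihood) and DESeq2 1.42.0 on the recovered reads, each library left out in turn, and other thresholds. Those on the counts with an adjusted p-value under 0.05, and chain ratios within replicate numbers, were added after seeing the data. The programs were tested on simulated counts. Named genes were KHDRBS1, all collagens, and of the list of processing genes and receptors those past a threshold and the best expressed of each role. PCOLCE and the genes of markers and overlapping loci named in the text were chosen after their values were seen or for their place. Proteins of the collagens were not used here. The precision is limited by 3 libraries per group.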

Additional observations from a re-analysis of the deposited data

How the results depend on the processing

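The direction of COL8A1, COL17A1, COL27A1, COL13A1, COL6A3, COL5A3, COL7A1, COL5A2, COL20A1 and KHDRBS1 was the same in all 17 alternatives tried for each. Of these, COL8A1 (log2 fold change -1.56 to -1.34, highest adjusted p 0.0107) and KHDRBS1 had an adjusted p under 0.05 in all 17, COL27A1 and COL17A1 in 14, COL5A2 and COL13A1 in 13, COL20A1 in 10, and COL5A3 and COL7A1 in 9. Collagens higher by the fold change rule (1) were 2 without a variance trend, 2 by an adjusted p under 0.05, 0 at a fold change of 2, and 1 to 2 with a library left out. Collagens lower (5) were 1 at a fold change of 2 and 3 to 6 with a library left out. Processing genes higher (0) were 1 after quantile normalization, 5 by an adjusted p under 0.05, and 0 to 1 with a library left out. Processing genes lower (1) were 3 by an adjusted p under 0.05, 0 at a fold change of 2, and 1 to 2 with a library left out. By adjusted p, collagens higher (2) were 1 with the replicate block, without the filter or without a variance trend and 0 to 2 with a library left out, and collagens lower (6) were 1 without a variance trend and 1 to 7 with a library left out. By adjusted p, processing genes higher (5) were 1 without a variance trend and 1 to 5 with a library left out, and those lower (3) were 1 without a variance trend, 5 with DESeq2 and 1 to 4 with a library left out. The median log2 fold change of the collagens (-0.05) was -0.16 at a minimum mean of 50, which leaves fewer genes, and -0.14 to -0.024 with a library left out. Non-overlapping chain ratios (6) were 7 to 10 with a library left out, as fewer libraries overlap less often by construction, and pairs with 1 direction within all replicate numbers (the replicate block) were 11. For the other changes the cause was not tested. Apart from the values given above for COL5A3, COL6A3, COL7A1, COL20A1, FKBP14, SEC24D and PCOLCE, the replicate block changed no call of a collagen or of the processing genes. No median of all loci moved by over 0.1 (log2) under TMM or quantile scaling. The depth does not allow a statement on the 14 collagens that were not tested.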

Other observations

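The collagens below the minimum mean had few reads in every library. COL2A1, the main cartilage collagen gene, had 4, 0 and 10 reads in replicates 1, 2 and 3 of si-CTRL, and 5, 1 and 2 in the si-SAM68 replicates. COL28A1 had 2 reads in each of the 6 libraries. COL26A1 had 2, 0 and 2 reads in si-CTRL and 4, 4 and 2 in si-SAM68 libraries. COL4A3, which lies 5 bases from COL4A4 in hg19, had 0 to 3 reads per library, while COL4A4 had a mean of 41.7 counts in si-CTRL vs. 49.5 in si-SAM68 cells. MFF overlaps COL4A3, with a mean of 3257 counts in si-CTRL cells. COL10A1 had no read in any library although NT5DC1, with a mean of 1659 counts in si-CTRL cells, overlaps it.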
